A study of Mus musculus with 12 samples.

Results

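The 10 genes described here belong to cellular iron handling and were followed across the 4 genotypes of a mouse RNA-sequencing series on Lyl1 and the formation of primitive red cells. They were chosen by gene symbol, and all 10 were found among the 49671 genes of the count table. Tfrc, Steap3 and Slc11a2 take up iron, Slc25a37 and Slc25a28 carry it into mitochondria, Fth1 and Ftl1 store it, Slc40a1 exports it, and Aco1 and Ireb2 encode its cytoplasmic sensors. The 12 libraries, 3 per group, came from a double knockout of LYL1 and SCL (LYL1 SCL DKO, below DKO), SCL KO, LYL1 KO and wild type (WT). SCL is the older name of Tal1. Tal1 and Lyl1 encode closely related bHLH transcription factors that act in early blood development. Each library is labelled as a pool of embryos of embryonic day 9.5, and no treatment is recorded. The sources used here give neither the alleles, nor the strain, nor how many embryos made up a pool.

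The deposited values are whole-number read counts. Levels are given here as CPM, a count relative to the TMM-adjusted total of its library, and 15399 genes, among them all 10 iron genes, passed a filter on low counts. A gene is called in a comparison when its adjusted p is under 0.05 in edgeR's quasi-likelihood test with Benjamini-Hochberg adjustment over those 15399 genes, and this is the test behind each adjusted p below where no other is given. Fold changes are given on the log2 scale with their standard error (SE), and levels of a group as the mean with the standard deviation (SD) over its 3 libraries. The sample titles call the libraries biological replicates (Bio Rep), but the labels do not say whether these were separate litters. The p-values reflect the spread between these libraries, whatever its source. The libraries are labelled as pools of embryos and held markers of several cell types, so fewer cells of a type and less RNA per cell cannot be told apart.

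Total counts lay between 24324685 and 29212443 per library. Tal1 averaged 92.8 ± 13 CPM in DKO, 109 ± 13.9 CPM in SCL KO, 579 ± 39 CPM in LYL1 KO and 572 ± 65.5 CPM in WT. Lyl1 averaged 84.1 ± 25.8 CPM in DKO, 175 ± 50 CPM in SCL KO, 87.7 ± 2.46 CPM in LYL1 KO and 181 ± 28.5 CPM in WT, and its difference between LYL1 KO and WT was not called (log2 change -1.04 ± 0.24, adjusted p = 0.286). The labelled tissue was weakly represented, and the labels do not say whether cells were sorted or cultured. Of 12 marker genes of the embryo body 2 averaged at least 1 CPM, and Myh6, Myl7, Nkx2-5 and Myf5 had no count in any library. Red cell markers were uneven: Alas2, Klf1, Slc4a1 and Hba-x stayed at or below 0.398 CPM, whereas Gfi1b was at 66.3 to 159 CPM. All 14 megakaryocyte and platelet markers averaged at least 1 CPM, and their sum was 17219 to 33864 CPM in DKO, 42924 to 58845 CPM in SCL KO, 61582 to 70825 CPM in LYL1 KO and 56239 to 64012 CPM in WT. Macrophage markers, 12 of 14 at 1 CPM or more, summed to 3026 to 3418 CPM in DKO, 3441 to 4401 CPM in SCL KO, 4580.4 to 6755 CPM in LYL1 KO and 3726 to 6092 CPM in WT. Red cell markers, 9 of 14 at 1 CPM or more, summed to 114 to 474 CPM in DKO, 462 to 1005 CPM in SCL KO, 1361 to 1777 CPM in LYL1 KO and 719.7 to 838 CPM in WT, so that LYL1 KO lay above and DKO below WT. Endothelial markers, 11 of 12 at 1 CPM or more, summed to 538 to 687 CPM in DKO, 831 to 1006 CPM in SCL KO, 1525 to 1747 CPM in LYL1 KO and 1335 to 1492 CPM in WT. A sum is set mostly by its most abundant genes, and not every marker followed it. Endothelial Tie1 was at 161, 117 and 119 CPM in DKO, above the 80.3, 88.1 and 112 CPM of WT (replicates 1 to 3). The embryo body markers summed to 26.2 to 87.2 CPM in DKO, 18.7 to 28.2 CPM in SCL KO, 4.25 to 11.9 CPM in LYL1 KO and 8.02 to 10.502 CPM in WT. Nes alone was at 24.5, 25.5 and 86.5 CPM in DKO and at 5.08, 4.18 and 3.83 CPM in WT (replicates 1 to 3). No library had over 29.9 CPM of the 10 yolk sac endoderm and liver markers. The megakaryocyte, macrophage, red cell and endothelial sums were lower in every DKO library than in every WT library, but single markers could overlap. Macrophage C1qa was at 16.5 to 38.1 CPM in DKO and 18.8 to 108 CPM in WT. Megakaryocyte Selp was at 1059 to 1168 CPM in DKO and 865 to 1066 CPM in WT. The embryo body sum was higher, but in DKO nearly all of it was Nes, so its rise is that of 1 gene. The part of these sums in the differences below was not tested. Y-linked transcripts were found at 189 to 265 CPM in DKO 1, DKO 2 and LYL1 KO 3 and were nearly absent from the other 9 libraries. Xist, a transcript of female cells, was at 0.402 to 1.79 CPM in those 3 libraries and at 356 to 740 CPM in the other 9. By these marks each library held mainly cells of 1 sex, although each is labelled as a pool of embryos, and the reason was not tested. DKO and LYL1 KO held male and female libraries, whereas SCL KO and WT held female libraries only. On the second principal component (13.2% of variance), replicates 1 and 2 of DKO, SCL KO and WT lay apart from the other 6 libraries.

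Most cells take up iron bound to transferrin through the transferrin receptor, reduce it in the endosome and move it to the cytoplasm. From there it goes into mitochondria for heme and iron-sulfur clusters, into the ferritin shell for storage, or out of the cell through ferroportin. The iron regulatory proteins IRP1 (Aco1) and IRP2 (Ireb2) bind hairpins called iron-responsive elements in messenger RNAs when iron is scarce. Binding near the 5′ end blocks translation of ferritin and ferroportin, whereas binding in the 3′ untranslated region (UTR) keeps the transferrin receptor message from being degraded. Developing red cells use more iron than any other cell type, and megakaryocytes share their precursors.

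The hairpins tie iron genes to the sensors, so the matches to a strict hairpin pattern, found in 4 of the 10 genes, are shown before the levels. The search took a C, 5 further bases, the loop letters CAGTGN and 5 bases that pair with the 5 before the loop, on the sense strand of the GENCODE vM21 transcripts (GRCm38). It found 1 site in the 5′ UTR of Fth1, Ftl1 and Slc40a1 and 4 sites in the 3′ UTR of Tfrc. Each is printed as 29 bases, with the 6 loop bases in capitals.
Fth1, chr19:9982732-9982760, plus strand: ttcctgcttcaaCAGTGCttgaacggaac
Ftl1, chr7:45459779-45459807, minus strand: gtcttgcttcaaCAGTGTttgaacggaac
Slc40a1, chr1:45925465-45925493, minus strand: caacttcagctaCAGTGTtagctaagttt
Tfrc site 1, chr16:32631219-32631247, plus strand: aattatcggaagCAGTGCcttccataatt
Tfrc site 2, chr16:32631598-32631626, plus strand: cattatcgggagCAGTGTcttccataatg
Tfrc site 3, chr16:32631663-32631691, plus strand: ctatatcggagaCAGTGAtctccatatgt
Tfrc site 4, chr16:32631710-32631738, plus strand: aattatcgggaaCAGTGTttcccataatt

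The sites of the ferritin genes differed from each other at 3 of 29 bases, whereas the ferroportin site differed from that of Fth1 at 16. Within Tfrc, sites 1, 2 and 4 differed from one another at 4 or 5 bases, and site 3 differed from each of them at 10 or 11. The first Tfrc site began 886 bases after the end of the coding sequence, and the gaps between neighbouring sites were 350, 36 and 18 bases. Of 22527 genes with a coding transcript, 31 (0.138%) held such a site in a 5′ UTR and 144 (0.639%) in a 3′ UTR, and Tfrc was the single gene with more than 1 in a 3′ UTR. Transcripts of the other 6 iron genes, Slc11a2 among them, held no match, which says only that these letters are not in the annotated transcripts. The pattern allows no bulge within the 5 pairs, so an element of another shape would be missed. The search therefore does not show that these 6 genes lack an element. A match is a description of the sequence and not a measurement of binding.

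**Figure D1:**
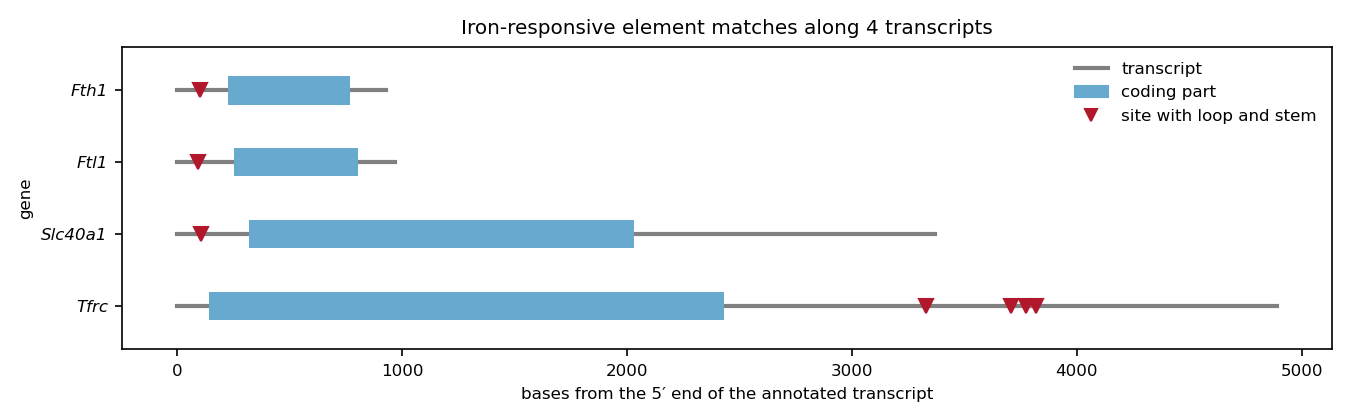
Position of iron-responsive element matches (triangles) along 1 annotated transcript each of Fth1, Ftl1, Slc40a1 and Tfrc, in bases from the 5′ end, with the coding part as a bar. The sites of Fth1, Ftl1 and Slc40a1 lie 109, 147 and 201 bases before the coding start, and the 4 Tfrc sites lie 886 to 1377 bases after the coding end.

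The iron genes, like all genes tested, differed most between DKO and the other groups. In DKO against WT, 5 of 10 were called, with Slc25a37 and Ftl1 higher and Tfrc, Steap3 and Aco1 lower. This compares with 34.5% of all genes called in that comparison, 16.4% upward and 18.1% downward. Against SCL KO, 3 of 10 were called in DKO (Slc25a37 higher, Tfrc and Aco1 lower), beside 19.1% of all genes (8.37% upward, 10.8% downward). Against LYL1 KO, 4 of 10 were called in DKO (Slc25a37 higher, Tfrc, Aco1 and Fth1 lower), beside 35.2% of all genes (17.4% upward, 17.9% downward), a similar share. Whether the shares of the 10 differ from those of all genes was not tested. The median log2 change of the 10 genes was -0.22 in DKO against WT, -0.23 against SCL KO and -0.17 against LYL1 KO, and that of all genes 0.04, 0.03 and 0.06. The comparisons of DKO share the DKO libraries, and the comparisons with WT share the WT libraries.

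Neither single knockout had a called iron gene. In SCL KO against WT, 0 of 10 were called by edgeR, DESeq2 or limma-voom and 0 had an unadjusted p under 0.05, beside 5.03% of all genes called (2.29% upward, 2.73% downward). In LYL1 KO against WT, 0 of 10 were called by the same 3 tools and 3 had an unadjusted p under 0.05, beside 0.0714% of all genes called (0.039% upward, 0.0325% downward). The libraries of both groups did not overlap for 5 of 10 genes in DKO against WT (42.5% of all genes), 5 in DKO against SCL KO (33.4%), 4 in DKO against LYL1 KO (49.7%), 0 in SCL KO against WT (22.4%) and 1 in LYL1 KO against WT (15.9%).

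**Figure D2:**
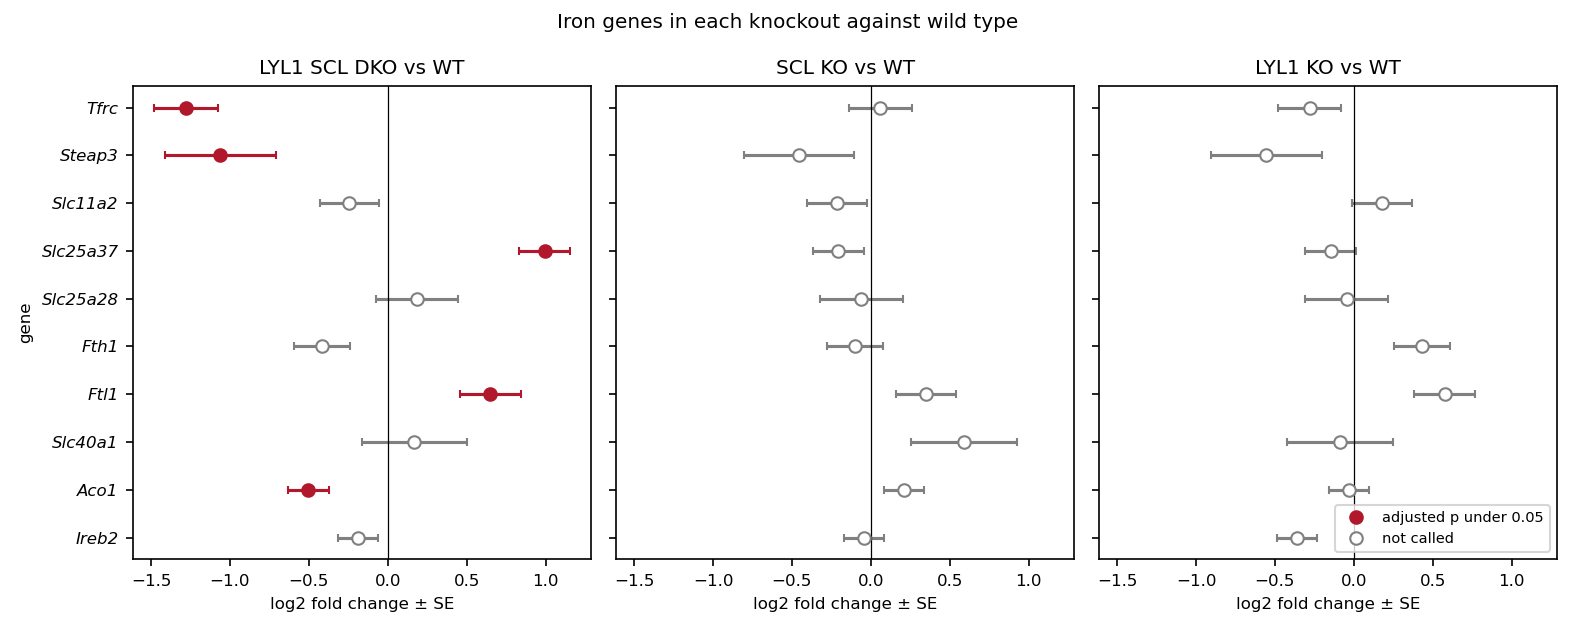
Log2 fold change ± SE of the 10 iron genes in DKO, SCL KO and LYL1 KO against WT, with filled points for an adjusted p under 0.05. Filled points appear in the DKO panel alone: Tfrc, Steap3 and Aco1 lie left of 0, Slc25a37 and Ftl1 right of it.

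Per kilobase of exon, so that genes can be set side by side, the ferritin chains were far above the rest in WT, with Fth1 at 4241 and Ftl1 at 398 CPM per kb. Tfrc (46.2 CPM per kb), Aco1 (24.6), Slc40a1 (12.2) and Ireb2 (9.1) followed. The 4 lowest genes, Slc25a28, Slc11a2, Slc25a37 and Steap3, lay between 2.4 and 4.1 CPM per kb in WT. In DKO, Tfrc was at 19.1 CPM per kb, close to Aco1 at 17.4, and Slc25a37, at 5.54 CPM per kb, stood above Slc25a28 at 4.66. The length used joins all annotated exons of a gene and can exceed that of a transcript. For Slc40a1 it was 9000 bases, against 3370 in its coding transcript. The order of genes close in level and the ratios between genes below depend on this length.

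Among the uptake genes, the transferrin receptor Tfrc (ENSMUSG00000022797, chr16:32608920-32632794, plus strand, GRCm38) was lower in DKO than in every other group. It was at 90.7, 97.7 and 165 CPM in DKO, 276, 277 and 341 CPM in SCL KO, 221, 218 and 268 CPM in LYL1 KO and 284, 312 and 262 CPM in WT (replicates 1 to 3). Every DKO library lay below every other library, DKO 3 stood well above DKO 1 and 2, and SCL KO and WT overlapped. The DKO mean, 118 ± 41.1 CPM, was 41.2% of the WT mean of 286 ± 24.7 CPM. Tfrc fell by 1.28 ± 0.20 on the log2 scale in DKO against WT, a 2.43-fold lower level (adjusted p = 0.000507). It also fell by 1.34 ± 0.20 against SCL KO (adjusted p = 0.001) and by 0.999 ± 0.20 against LYL1 KO (adjusted p = 0.0024). Neither single knockout was called, with log2 changes against WT of 0.06 in SCL KO (298 ± 37.4 CPM, adjusted p = 0.922) and -0.28 in LYL1 KO (236 ± 28.1 CPM, adjusted p = 0.756).

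DKO 3, with the highest Tfrc of its group, had the lowest sum of megakaryocyte and platelet markers of all 12 libraries (17219 CPM, against 33864 and 23853 CPM in DKO 1 and 2). It also differed from DKO 1 and 2 in lacking Y-linked transcripts. The part of either in the Tfrc level was not tested. With presence of Y-linked transcripts as a term, the fall of Tfrc in DKO was called against WT, SCL KO and LYL1 KO.

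Steap3 (ENSMUSG00000026389, chr1:120190757-120272705, minus strand), the endosomal reductase that turns ferric into ferrous iron, was low throughout. It was at 4.59, 4.45 and 10.7 CPM in DKO, 8.08, 10.3 and 11.6 CPM in SCL KO, 9.76, 11.1 and 7.19 CPM in LYL1 KO and 18.3, 14.03 and 8.90 CPM in WT. DKO 1 and 2 were the lowest of all libraries, whereas DKO 3 lay above WT 3, so that the groups overlapped. Steap3 fell by 1.06 ± 0.35 on the log2 scale in DKO (6.57 ± 3.55 CPM) against WT (13.7 ± 4.7 CPM; adjusted p = 0.0359). This call was lost in 8 of its 15 alternatives. They were those without DKO 1 (adjusted p = 0.121), DKO 2 (0.133), WT 1 (0.15) or WT 2 (0.0901), with no filter on low counts (0.0734), in the 6 libraries alone (0.106), with the replicate block (0.0588) and with Y-linked transcripts as a term (0.194, the highest, at a log2 change of -0.58). Without DKO 3 it was also called lower in DKO against SCL KO (log2 change -1.16, adjusted p = 0.0226) and LYL1 KO (-1.06, adjusted p = 0.0184).

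Slc11a2 (ENSMUSG00000023030, chr15:100387898-100425072, minus strand) encodes DMT1, the divalent metal transporter that carries ferrous iron out of the endosome. It was at 15.6, 15.3 and 24.1 CPM in DKO, 18.8, 17.6 and 19.8 CPM in SCL KO, 26.2, 26.4 and 21.2 CPM in LYL1 KO and 26.3, 18.9 and 20.1 CPM in WT. DKO 3 again stood above DKO 1 and 2, and the groups overlapped in all 5 comparisons. Group means were 18.4 ± 5.0 CPM in DKO, 18.7 ± 1.09 CPM in SCL KO, 24.6 ± 2.91 CPM in LYL1 KO and 21.7 ± 3.97 CPM in WT, and no comparison of Slc11a2 was called. The log2 change was -0.24 in DKO against WT and -0.42 in DKO against LYL1 KO (adjusted p = 0.103). Without DKO 3 it was called lower in DKO against WT (log2 change -0.50, adjusted p = 0.0352) and against LYL1 KO (-0.68, adjusted p = 0.00784), so that 1 library decided both.

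**Figure D3:**
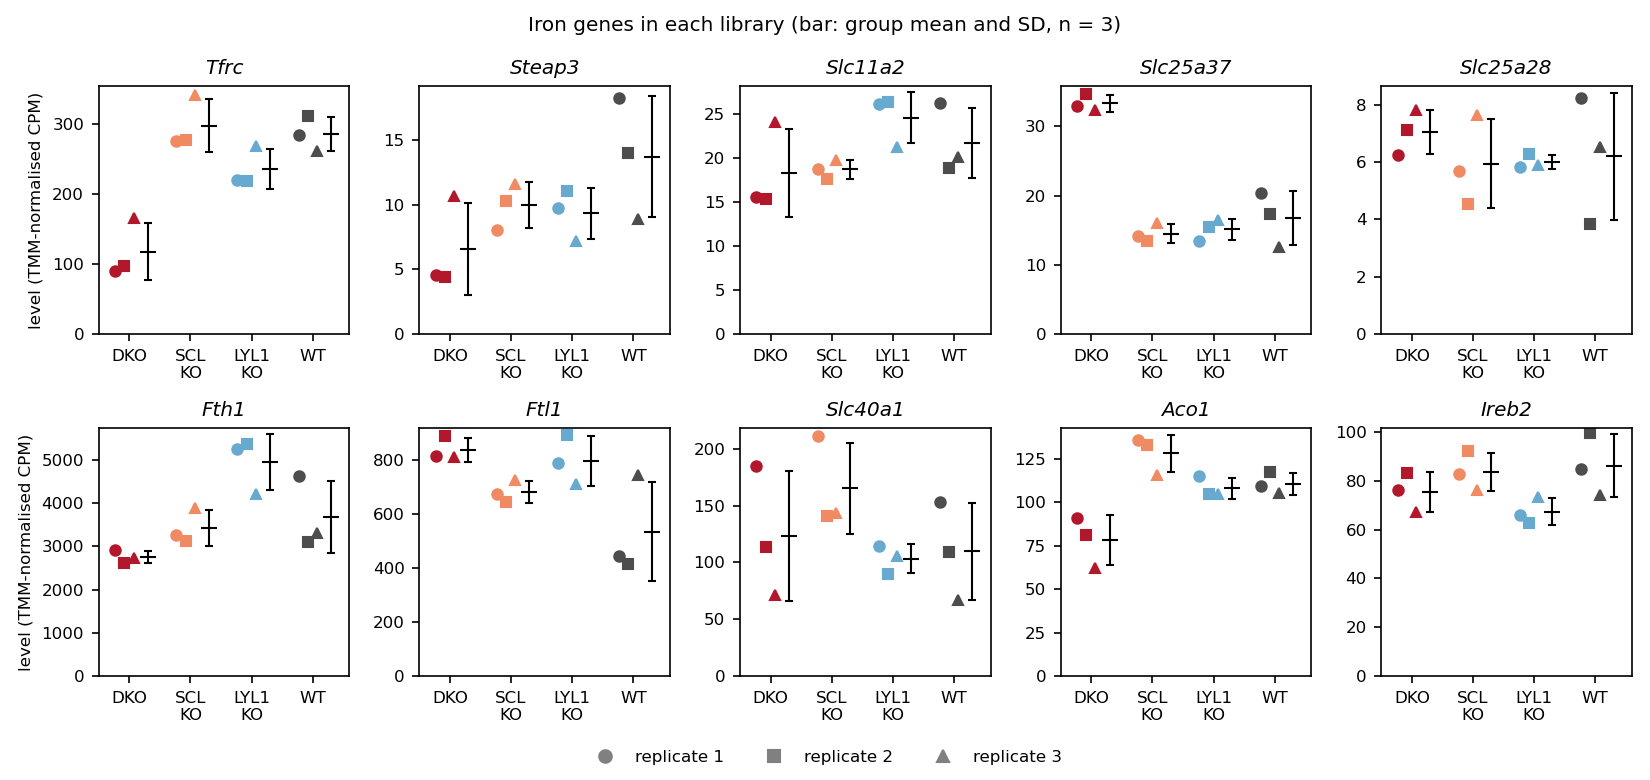
Level of the 10 iron genes in each of the 12 libraries (points, TMM-normalised CPM on linear axes from 0), with group means and SDs (n = 3) drawn beside the points. Slc25a37 lies at 32.3 to 34.7 CPM in DKO and at or below 20.3 CPM in every other library, while Tfrc lies at 90.7 to 165 CPM in DKO and at 218 CPM or above elsewhere.

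The mitochondrial importer Slc25a37, or mitoferrin 1, which supplies iron for heme synthesis in red cell precursors, was higher in DKO than in every other group. It (ENSMUSG00000034248, chr14:69241848-69285112, minus strand) was at 32.9, 34.7 and 32.3 CPM in DKO, 14.1, 13.4 and 16.03 CPM in SCL KO, 13.4, 15.4 and 16.5 CPM in LYL1 KO and 20.3, 17.3 and 12.6 CPM in WT. All 3 DKO libraries were above all other libraries, and the other 3 groups overlapped. The DKO mean of 33.3 ± 1.25 CPM was 199% of the WT mean of 16.7 ± 3.88 CPM. Slc25a37 rose by 0.99 ± 0.16 on the log2 scale in DKO against WT (1.99-fold, adjusted p = 0.000581). Against SCL KO it rose by 1.20 ± 0.16 (2.3-fold, adjusted p = 0.000481) and against LYL1 KO by 1.14 ± 0.16 (2.2-fold, adjusted p = 0.000205). In the single knockouts its log2 change against WT was -0.21 in SCL KO and -0.15 in LYL1 KO, neither called. Of the 50-base windows of its transcript, 8.07% also occurred, on either strand, in 5 predicted genes. Among these, Gm31748 and Gm27223 cover 6.33% of its exon bases on the opposite strand, where strand-specific counting keeps reads apart. Reads from the remaining shared stretches may not have been counted.

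Slc25a28 (ENSMUSG00000040414, chr19:43663822-43674881, minus strand), mitoferrin 2, is the broadly expressed paralog of Slc25a37. It was at 6.26, 7.11 and 7.80 CPM in DKO, 5.69, 4.53 and 7.63 CPM in SCL KO, 5.83, 6.29 and 5.91 CPM in LYL1 KO and 8.24, 3.83 and 6.53 CPM in WT. The groups overlapped and no comparison was called, with a log2 change of 0.19 in DKO against WT. Per kilobase of exon, Slc25a37 was at 1.20 ± 0.143 times the level of Slc25a28 in DKO, against 0.632 ± 0.107 in SCL KO, 0.632 ± 0.0628 in LYL1 KO and 0.747 ± 0.342 in WT.

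For storage, the ferritin heavy chain Fth1 (ENSMUSG00000024661, chr19:9982703-9985092, plus strand), which oxidises iron on its way into the shell, was the most abundant of the 10. It was at 2903, 2619.7 and 2734 CPM in DKO, 3267, 3112 and 3891 CPM in SCL KO, 5259, 5371 and 4214 CPM in LYL1 KO and 4627, 3088 and 3304 CPM in WT. All DKO libraries lay below all others, and WT 1 stood apart from WT 2 and 3. Fth1 fell by 0.85 ± 0.18 on the log2 scale in DKO (2752 ± 142 CPM) against LYL1 KO (4948 ± 638 CPM; adjusted p = 0.00302). In DKO against WT (3673 ± 833 CPM) the log2 change was -0.42 ± 0.18 and was not called (adjusted p = 0.0876, 0.0359 by DESeq2's Wald test). It was not called in LYL1 KO against WT either (0.43 ± 0.18, adjusted p = 0.567).

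The libraries with most Fth1 were also those with most macrophage transcripts. The macrophage marker sum was 6558, 6755 and 4580.4 CPM in LYL1 KO 1, 2 and 3 and 6092, 3854 and 3726 CPM in WT 1, 2 and 3. In DKO, where Fth1 was lowest, it was 3026, 3158 and 3418 CPM. The part of macrophage transcripts in the Fth1 differences was not tested.

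Ftl1, the ferritin light chain, which aids nucleation of the iron core, was higher in DKO than in WT. It (ENSMUSG00000050708, chr7:45457944-45459884, minus strand) was at 813, 887 and 809 CPM in DKO, 673, 644 and 723 CPM in SCL KO, 787, 890.04 and 709 CPM in LYL1 KO and 445, 413 and 743 CPM in WT. WT 3 lay within the range of the knockout libraries, whereas WT 1 and 2 were below every other library. DKO overlapped neither WT nor SCL KO. Ftl1 rose by 0.65 ± 0.19 on the log2 scale in DKO (836 ± 44.2 CPM) against WT (534 ± 182 CPM; 1.57-fold, adjusted p = 0.0222). The call was lost in 5 of its 15 alternatives: without DKO 2 (adjusted p = 0.0592), WT 1 (0.0854) or WT 2 (0.0891, the highest), in the 6 libraries alone (0.0728) and with Y-linked transcripts as a term (0.0574). Without WT 3, Ftl1 was called higher in SCL KO (log2 change 0.66, adjusted p = 0.0147) and in LYL1 KO (0.88, adjusted p = 0.0311) against WT too. With all libraries it was called in neither (0.35 and 0.58).

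Ftl1 counts carry a limit that the other members do not share to this extent. Of the 50-base windows of its transcript, 90.6% (833 of 919) also occurred, on either strand, in transcripts of 17 other annotated genes, mostly processed copies, and reads that map to several places were not counted. Part of this share may come from Gm10252, which covers 26.5% of Ftl1 exon bases on the opposite strand. On the same strand, Gm22133 covers 8.13% of them. The copy Ftl1-ps1 averaged 96 ± 16 CPM in DKO, 74.4 ± 15.7 CPM in SCL KO, 75.3 ± 4.72 CPM in LYL1 KO and 65.9 ± 18.6 CPM in WT, with a log2 change of 0.54 in DKO against WT that was not called (adjusted p = 0.0541). Ftl1-ps2 averaged 1.43 CPM over the 12 libraries and was not called in any comparison. Ftl1 and these copies share most of their sequence, so the Ftl1 level and its change are uncertain. For Fth1 the share of such windows was 4.01%, and for the 7 iron genes other than Ftl1, Fth1 and Slc25a37 it was 0.

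Slc40a1 (ENSMUSG00000025993, chr1:45908068-45926523, minus strand) encodes ferroportin, the only known iron exporter of mammalian cells. It was at 184, 114 and 71.2 CPM in DKO, 211, 141 and 144 CPM in SCL KO, 115, 89.6 and 105 CPM in LYL1 KO and 153, 109 and 67.1 CPM in WT. Replicates of 1 group differed by more than 2 times in DKO and WT, and the groups overlapped in all 5 comparisons. Group means were 123 ± 57.2 CPM in DKO, 165 ± 39.8 CPM in SCL KO, 103 ± 12.7 CPM in LYL1 KO and 109.6 ± 43 CPM in WT. No comparison was called, and the largest pairwise log2 change was 0.59 in SCL KO against WT (adjusted p = 0.404).

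Of the sensors, Aco1 (ENSMUSG00000028405, chr4:40143081-40198338, plus strand), IRP1, a cytosolic aconitase when it carries an iron-sulfur cluster, was lower in DKO than in every other group. It was at 90.7, 81.1 and 62.3 CPM in DKO, 135.5, 133 and 116 CPM in SCL KO, 115, 104 and 105 CPM in LYL1 KO and 109, 117 and 105 CPM in WT. All DKO libraries lay below all others. Aco1 fell by 0.50 ± 0.13 on the log2 scale in DKO (78 ± 14.4 CPM) against WT (111 ± 6.24 CPM; 1.42-fold lower, adjusted p = 0.0095). It fell by 0.71 ± 0.13 against SCL KO (128 ± 10.8 CPM, adjusted p = 0.00239) and by 0.47 ± 0.13 against LYL1 KO (108 ± 6.03 CPM, adjusted p = 0.013). The call against LYL1 KO was lost without LYL1 KO 1 (adjusted p = 0.0507, the highest over its alternatives).

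Ireb2 (ENSMUSG00000032293, chr9:54863789-54912530, plus strand), IRP2, which is degraded when iron is plentiful, was at 76.2, 83.4 and 67.1 CPM in DKO, 82.6, 92.1 and 76.3 CPM in SCL KO, 65.8, 62.8 and 73.4 CPM in LYL1 KO and 84.9, 99.7 and 74.1 CPM in WT. The 3 LYL1 KO libraries lay just below the 3 WT libraries, and the other comparisons overlapped. Group means were 75.5 ± 8.18 CPM in DKO, 83.6 ± 7.96 CPM in SCL KO, 67.3 ± 5.46 CPM in LYL1 KO and 86.3 ± 12.9 CPM in WT. No comparison was called, with a log2 change of -0.36 ± 0.13 in LYL1 KO against WT (adjusted p = 0.523). Per kilobase of exon, Aco1 was at 2.17 ± 0.296 times the level of Ireb2 in DKO, against 3.23 ± 0.212 in SCL KO, 3.40 ± 0.352 in LYL1 KO and 2.73 ± 0.256 in WT.

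The interaction asks whether losing LYL1 had another effect where SCL was also lost: it is the change of DKO against SCL KO minus the change of LYL1 KO against WT. It was called for 3 of the 10 genes, beside 9.38% of all genes (3.51% upward, 5.86% downward). For Slc25a37 it was 1.35 ± 0.23 on the log2 scale (adjusted p = 0.00488), made up of 1.20 without SCL and -0.15 with it. For Tfrc it was -1.06 ± 0.28 (adjusted p = 0.0382), from -1.34 and -0.28. For Aco1 it was -0.68 ± 0.18 (adjusted p = 0.0356), from -0.71 and -0.03.

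The interaction of Slc25a37 was called in each of the 20 alternatives, with adjusted p up to 0.0191. That of Tfrc was lost when any 1 library other than DKO 3 was left out, with adjusted p between 0.0615 and 0.108, and its log2 value then lay between -0.89 and -1.12. That of Aco1 was lost without any of 9 libraries, all but DKO 1, DKO 3 and SCL KO 3, with adjusted p between 0.0501 and 0.0972. For Fth1 the interaction was -0.74 ± 0.25 and was not called (adjusted p = 0.0875), but it was by DESeq2 (-0.76, adjusted p = 0.0155) and without WT 1 (-0.95, adjusted p = 0.0353).

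**Figure D4:**
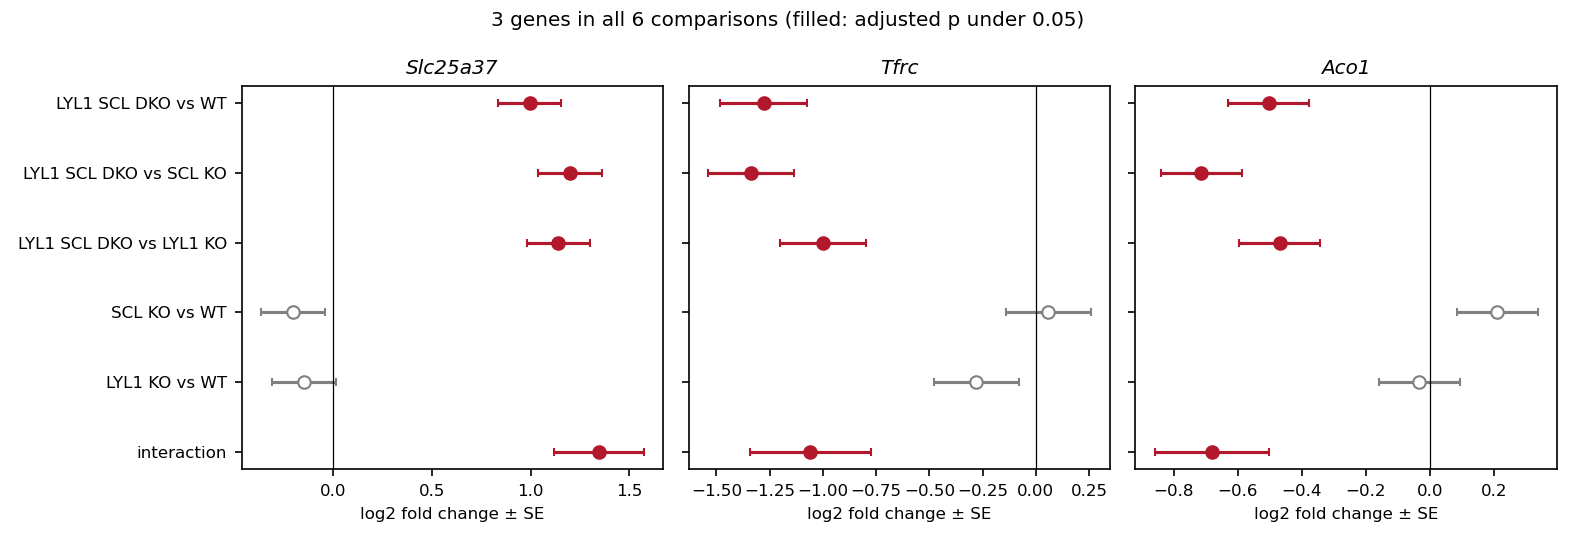
Log2 fold change ± SE of Slc25a37, Tfrc and Aco1 in the 5 pairwise comparisons and the interaction, with filled points for an adjusted p under 0.05 and an axis of its own for each gene. The 3 comparisons of DKO and the interaction are filled for all 3 genes, and the single knockouts against WT are open.

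Slc25a37, Tfrc and Aco1 had the smallest adjusted p-values of the 10, and the genes most like each of them were read from Pearson's r of log2 CPM over the 12 libraries. For Slc25a37 they were N4bp1 (r = 0.978), Lrrk2 (0.965) and Stambpl1 (0.956). For Tfrc they were Bdh1 (0.963), Jazf1 (0.956) and Erlin1 (0.949). For Aco1 they were Man1a (0.982), Pggt1b (0.980) and Btk (0.977). The points share libraries, and for Slc25a37, Tfrc and Aco1 the DKO libraries lie apart from all others, so these values are descriptions.

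A list of 49 other genes of iron and heme iron handling gave the surroundings of the 10, with 48 in the table and 36 tested. In DKO against WT, 4 rose and 8 fell (33.3%), in DKO against SCL KO 3 rose and 5 fell (22.2%), and in DKO against LYL1 KO 4 rose and 9 fell (36.1%), shares close to the 34.5%, 19.1% and 35.2% of all genes. In SCL KO against WT 2 rose and 1 fell (8.33%, beside 5.03% of all genes). In LYL1 KO against WT 0 were called by edgeR, DESeq2 or limma-voom, and 5 had an unadjusted p under 0.05. The median log2 change of the 36 was -0.14 in DKO, -0.31 in SCL KO and 0.07 in LYL1 KO, each against WT.

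Slc48a1, which carries heme from the lysosome into the cytoplasm, rose most clearly. It was at 439.97, 459 and 403 CPM in DKO, 255, 190.03 and 294 CPM in SCL KO, 175, 172 and 195 CPM in LYL1 KO and 127, 118 and 151 CPM in WT. DKO lay above all other libraries, and SCL KO above WT without overlap. The log2 change against WT was 1.72 ± 0.15 in DKO (adjusted p = 9.7e-06) and 0.90 ± 0.15 in SCL KO (adjusted p = 0.00493), and it was not called in LYL1 KO (0.45 ± 0.15, adjusted p = 0.509).

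Flvcr1, a membrane transporter described as a heme exporter, was at 26.6, 26.7 and 27.7 CPM in DKO, 42.0, 40.1 and 47.1 CPM in SCL KO, 72.5, 67.5 and 60.4 CPM in LYL1 KO and 52.9, 51.8 and 55.2 CPM in WT. No 2 groups overlapped. Flvcr1 fell by 0.98 ± 0.09 on the log2 scale in DKO against WT (adjusted p = 1.49e-05), and its interaction was -0.998 ± 0.13 (adjusted p = 0.00129).

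Of the genes of transferrin receptor traffic, Exoc6 and Snx3 were lower in DKO, as Tfrc was. Exoc6, the exocyst subunit mutated in the hemoglobin-deficit mouse, which recycles the receptor poorly, averaged 117 ± 31.1 CPM in DKO, 235 ± 30.3 CPM in SCL KO, 328 ± 31.9 CPM in LYL1 KO and 324 ± 31.5 CPM in WT. It fell by 1.47 ± 0.18 on the log2 scale in DKO against WT (adjusted p = 7.03e-05). Snx3, a sorting nexin that returns the receptor to the cell surface, averaged 149.8 ± 12.5 CPM in DKO and 209 ± 9.81 CPM in WT and fell by 0.48 ± 0.10 (adjusted p = 0.00296).

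Of genes on the mitochondrial side, Tmem14c, which moves a heme precursor across the inner membrane, averaged 169 ± 55.1 CPM in DKO, 291 ± 29.3 CPM in SCL KO, 418 ± 29.5 CPM in LYL1 KO and 386 ± 22.3 CPM in WT. It fell by 1.19 ± 0.19 on the log2 scale in DKO against WT (adjusted p = 0.000465), while Slc25a37 rose. Glrx5, a mitochondrial glutaredoxin of iron-sulfur cluster assembly, fell by 0.44 ± 0.15 in DKO (19.3 ± 2.26 CPM) against WT (26.3 ± 5.17 CPM; adjusted p = 0.0405), a call kept in 9 of its 15 alternatives. It was lost without DKO 2 (adjusted p = 0.144), DKO 3 (0.0625) or WT 3 (0.160, the highest), with no filter on low counts (0.0593), in the 6 libraries alone (0.104) and with the Y-linked term (0.101). Ncoa4, the receptor that delivers ferritin to lysosomes, was the list's single gene called lower in SCL KO against WT. It averaged 20.9 ± 3.37 CPM in DKO, 16.9 ± 0.505 CPM in SCL KO, 30.2 ± 3.3 CPM in LYL1 KO and 31.9 ± 1.15 CPM in WT, and against WT fell by 0.61 ± 0.13 in DKO (adjusted p = 0.00271) and by 0.91 ± 0.13 in SCL KO (adjusted p = 0.00149) on the log2 scale.

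Hfe2, the older symbol of hemojuvelin, a co-receptor in the control of hepcidin, was low. It was at 0.737, 1.33 and 1.12 CPM in DKO, 6.38, 6.39 and 3.53 CPM in SCL KO, 2.07, 3.01 and 4.47 CPM in LYL1 KO and 2.41, 1.70 and 2.22 CPM in WT. It fell by 2.35 ± 0.36 on the log2 scale in DKO against SCL KO (adjusted p = 0.00103), and its interaction was -2.94 ± 0.50 (adjusted p = 0.0048). The log2 change in SCL KO against WT was 1.36 ± 0.34 (adjusted p = 0.0436), a call lost when any 1 of SCL KO 1, SCL KO 2 or the WT libraries was left out (adjusted p between 0.0697 and 0.179), with limma-voom (0.0529) and in the 6 libraries alone (0.0523). The interaction was called for 3 of the 36 genes (8.33%, beside 9.38% of all genes), Flvcr1, Exoc6 and Hfe2, all with negative values.

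**Figure D5:**
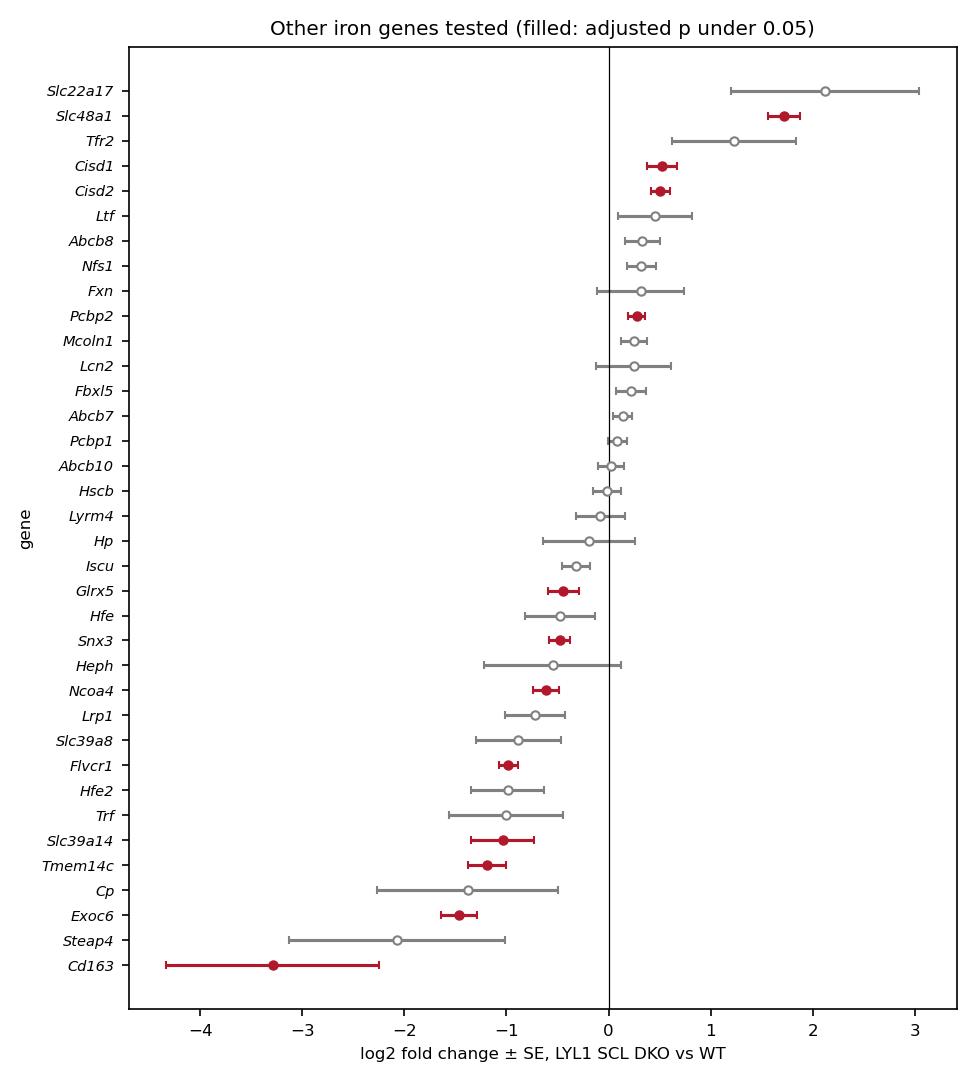
Log2 fold change ± SE in DKO against WT of the 36 other iron genes tested, ordered by size, with filled points for an adjusted p under 0.05. Filled points right of 0 are Slc48a1, Cisd1, Cisd2 and Pcbp2, and 8 lie left of 0, among them Exoc6 at -1.47 and Flvcr1 at -0.98.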

How the data were processed

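The deposited file is a gene table of raw counts with 12 library columns, of which 0 were left unused. Per the submitters' processing notes, the authors used STAR 2.5.2b, featureCounts of Subread 1.5.2 and limma, with the build GRCm38. Counting, per the file headers, was strand-specific (setting 2) on Ensembl release 87 gene models, with reads of several map positions left out. This lowers counts of genes with near-identical copies, such as Ftl1. Per the labels, libraries were made with a stranded mRNA kit. The table also gives exon lengths, used for CPM per kb.

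Symbols were matched by Ensembl identifier for 49326 of 49671 genes. The tests were run with edgeR 4.0.16 (R 4.3.3): filterByExpr (minimum count 10, minimum total 15), TMM scaling, and the robust quasi-likelihood F-test on 1 model of the 12 libraries holding the group alone, with Benjamini-Hochberg adjustment over 15399 genes and a threshold of 0.05. Fold changes are DKO, SCL KO or LYL1 KO over its reference. The common biological coefficient of variation was 0.234. The 3 counts that a count of 0 allows correspond to 0.0936 to 0.131 CPM per library, and such limits cover counting error only. Log2 CPM for components and correlations used a prior count of 2. The test was tried on simulated counts first. Libraries of 1 group differed by far more than sampling noise (chi-square per degree of freedom 8.79 to 122), so none was counted as a repeat of another.

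The 10 genes, the lists and the markers were chosen with earlier results of these data known. The rule named all 10 genes, the targeted genes, up to 8 other iron genes with the smallest adjusted p (mean of at least 1 CPM), ferritin copies averaging at least 1 CPM, and the 3 genes most correlated with each of 3 members. The alternatives were DESeq2 size factors, no filter on low counts, at least 1 CPM in 3 libraries, DESeq2 1.42.0's Wald test, limma 3.58.1's voom, only the 6 libraries compared, the replicate number as a block, the side of principal component 2 as a term, each library left out and, added after seeing the data, Y-linked transcripts as a term. Windows of 50 bases of 1 coding transcript a gene (first a principal one by the APPRIS tag, then the longest) were looked up. The lookup covered both strands of the annotated transcripts of all other gene symbols.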

Additional observations from a re-analysis of the deposited data

Results flagged for a closer look

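The results below are those in which the effect of losing LYL1 differed between libraries without and with SCL by the interaction test of edgeR, with 3 libraries in each of the 4 groups. Among the 10 iron genes the interaction log2 value was 1.35 for Slc25a37 (adjusted p = 0.00488), -1.06 for Tfrc (adjusted p = 0.0382) and -0.68 for Aco1 (adjusted p = 0.0356). Among the other iron genes named it was -0.998 for Flvcr1 (adjusted p = 0.00129), -2.94 for Hfe2 (adjusted p = 0.0048) and -1.02 for Exoc6 (adjusted p = 0.0247). That of Exoc6 was lost in 6 of its 20 alternatives (highest adjusted p 0.0722), each with 1 of DKO 2, SCL KO 1, SCL KO 2, LYL1 KO 1, LYL1 KO 3 and WT 1 left out. In Flvcr1 and Hfe2 it was called in all 20. Groups of 3 libraries were too small to be searched for single outlying values.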

How the results depend on the processing

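Of 15 calls of the 10 genes, 10 were kept in every alternative run and 0 changed sign. Called members numbered 5 in DKO against WT, with 3 in the 6 libraries compared alone and 3 with Y-linked transcripts as a term. Leaving out 1 library gave 3 to 6 there, 3 to 4 against SCL KO, 3 to 6 against LYL1 KO, 1 to 3 for the interaction, and 0 to 1 in each single knockout against WT (1 without WT 3, Ftl1). Called other iron genes numbered 8 in DKO against SCL KO, with 5 in the 6 libraries and 5 with the Y-linked term. In SCL KO against WT they numbered 3, with 5 by DESeq2 and 7 with the side of component 2. For the interaction they numbered 3, with 6 at 1 CPM in 3 libraries, 6 by DESeq2, 6 with the replicate block and 5 with component 2. Leaving out 1 library gave 5 to 7 against SCL KO, 8 to 16 in DKO against WT, 9 to 13 against LYL1 KO, 2 to 3 in SCL KO, 0 to 0 in LYL1 KO and 2 to 5 for the interaction. Of 27 calls of the 8 named other iron genes, 22 were kept throughout. Scaling by DESeq2 factors moved no median by over 0.1.

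Signs turned only in results that were not called. In LYL1 KO against WT, leaving out 1 library gave log2 changes of -0.32 to 0.012 for Slc25a37, -0.28 to 0.21 for Slc25a28, -0.35 to 0.23 for Slc40a1 and -0.073 to 0.030 for Aco1. Slc25a28 became 0.014 with voom, and with the side of component 2 Slc40a1 became 0.48 and Aco1 0.14. In SCL KO against WT, leaving out 1 library gave -0.057 to 0.12 for Tfrc, -0.31 to 0.20 for Slc25a28, -0.21 to 0.10 for Fth1 and -0.15 to 0.068 for Ireb2. In DKO against WT it gave -0.045 to 0.44 for Slc25a28 and -0.24 to 0.48 for Slc40a1, and the Y-linked term gave 0.042 for Slc11a2 and -0.26 for Slc40a1. Against SCL KO, Slc11a2 became 0.26 with the Y-linked term and lay between -0.29 and 0.092 without 1 library. Against LYL1 KO, Slc40a1 became -0.32 with component 2 and -0.0087 with the Y-linked term and lay between -0.16 and 0.52 without 1 library, and Ireb2 became -0.0075 with component 2. The interaction of Steap3 became 0.15 with component 2 or the Y-linked term and lay between -0.60 and 0.19 without 1 library. The cause was not tested.

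The replicate numbers mark no shared litter or batch in the labels, and 10 of 18 same-numbered pairs deviated together with a correlation over 0.1 (range -0.0432 to 0.441). With the replicate number as a block, the members called were 4 in DKO against WT, Steap3 being lost (adjusted p = 0.0588), and 3 against SCL KO, 4 against LYL1 KO, 3 for the interaction and 0 in each single knockout. The block gave 1226 called genes in SCL KO against WT, 5970 in DKO against WT, 3722 against SCL KO, 6043 against LYL1 KO, 16 in LYL1 KO and 2100 for the interaction.

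Counts of all called genes moved by over 1.5 times as follows. LYL1 KO against WT, 11, gave 104 by DESeq2, 29 in the 6 libraries and 5 to 41 without 1 library. SCL KO against WT, 774, gave 1291 by DESeq2, 1631 with component 2 and down to 388 without 1 library. DKO against SCL KO, 2947, gave 1742 in the 6 libraries and down to 1645 without 1 library. The interaction, 1444, gave 3199 with component 2 and down to 671 without 1 library.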
